A study of Mus musculus with 6 samples.

Results

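The transcripts of 35 genes that carry cells through mitosis were followed in immortalized mouse embryonic fibroblasts (MEF) with and without an RNA-binding protein of the TIA family. The 35 genes were chosen by name, from what their proteins do, with earlier results of these data known. Among them are Cdk1 and Ccnb1, whose proteins were blotted in the study. The 35 were taken from 34797 gene names on the array, and 52 of its 55681 probes carry their names. WT MEF (strain label W4), TIA1 KO MEF (strain label BALB/c, knock-out of TIA1) and TIAR KO MEF (strain label C57BL/6, knock-out of TIAR, whose gene is Tial1) were each hybridized to 2 one-colour arrays, 6 in all, from independent samples of untreated cells. Each group is 1 immortalized line, so that genotype, strain and line cannot be told apart. The slide row of the TIA1 KO arrays differed from that of the remaining 4, so that slide position and genotype of this line cannot be told apart. Between 16000 and 26254 probes were rated well above background on an array, with the lowest numbers, 16000 and 19920, on the TIA1 KO arrays.

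Entry into mitosis is driven by the kinase Cdk1 bound to cyclin B, which Cdc25 phosphatases switch on. Chromosomes are then attached to the spindle through kinetochores while the spindle checkpoint holds back the anaphase-promoting complex (APC/C). Once activated by Cdc20, this ubiquitin ligase marks cyclin B and securin for destruction, separase cuts the cohesin rings and the cell divides. Most transcripts of this group are known to peak in G2 and M phase. In RNA from a whole culture, fewer cells in these phases and less RNA per cell cannot be told apart.

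As a group, the mitosis genes sat lower in both knock-out lines than in WT MEF. The median difference (log2, KO minus WT) over the 35 genes, each read from its brightest probe, was -0.35 in the TIA1 KO and -0.60 in the TIAR KO line, and 29 of 35 genes lay below 0 in either comparison. The median of all 10986 genes well above background on every array was -0.04 and -0.03. Few members passed the threshold of the study, a limma p adjusted by Benjamini-Hochberg under 0.05 with a fold change above 2. In TIA1 KO MEF, Pttg1, the gene of securin, rose, and Ube2c, the ubiquitin-conjugating enzyme of the APC/C, fell. In TIAR KO MEF, Birc5, the gene of survivin, and Kif20a, a kinesin of cytokinesis, fell.

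These counts are close to those of the array as a whole. In TIA1 KO MEF 2 of 35 genes were called, beside 3.54% of all probes, with 1 gene higher (2.18% of all probes) and 1 lower (1.36%). In TIAR KO MEF 2 of 35 were called, both lower, beside 5.76% of all probes called and 2.37% called lower. At the adjusted p alone, 8 of 35 genes were lower in TIAR KO MEF, where 3.44% of all probes were. They were Cdc25b, Cdc25c, Birc5, Cdca8, Prc1, Kif20a, Kif23 and Ect2. None of the 8 kept an adjusted p under 0.05 under all 13 other settings. At an unadjusted p under 0.05, 11 genes were lower in TIA1 KO (17.3% of all probes) and 15 in TIAR KO MEF (10.7%). Shares were higher among the 10986 genes well above background on every array, of which 7.3% were called in the TIA1 KO and 11.4% in the TIAR KO line. At the adjusted p alone 6.95% of these genes were lower in TIAR KO MEF, and at the unadjusted p 18% were lower in the TIA1 KO and 20% in the TIAR KO line.

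Both arrays of the knock-out read below both WT arrays for 19 of 35 genes in TIA1 KO and 21 of 35 in TIAR KO MEF. These are shares of 54.3% and 60.0%, beside 39.2% and 27% of all probes and 35.8% and 33.2% of the genes above background. The opposite order, with both knock-out arrays above both WT arrays, held for 3 genes in each comparison (8.57%), beside 26% and 21.9% of all probes. Both comparisons used the same 2 WT arrays.

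**Figure D1:**
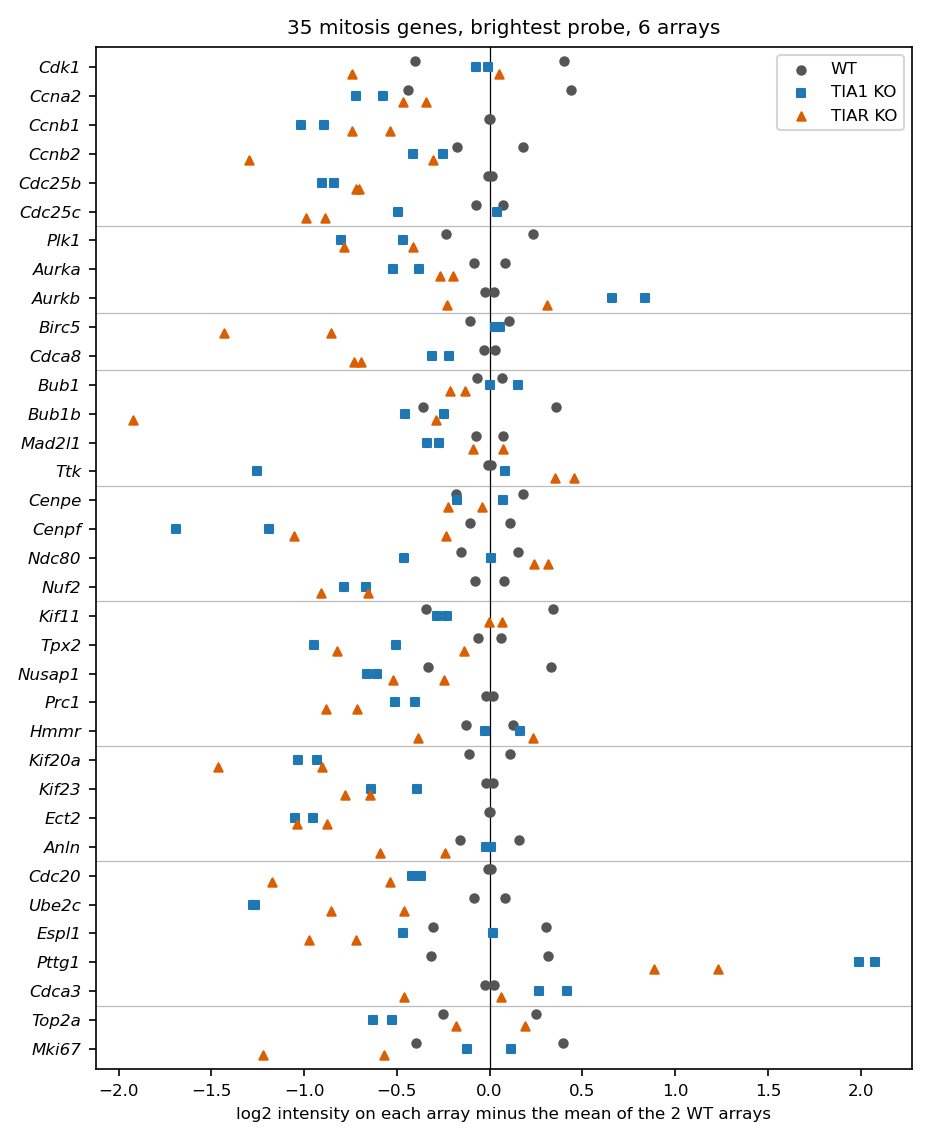
Log2 intensity of the 35 mitosis genes on each of the 6 arrays, less the mean of the 2 WT arrays, by role from top to bottom (grey lines part the roles). Most knock-out points lie to the left of 0, Pttg1 lies far to the right, and the Bub1b value of 1 TIAR KO array stands apart from the other.

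Of the 35 genes, 32 were well above background on all 6 arrays, and over these 32 the median was -0.34 in the TIA1 KO and -0.62 in the TIAR KO line. Aurkb, which encodes the kinase of the chromosomal passenger complex, was above it on 0 of 6 arrays. Its values ran from 6.32 to 7.39 and no fold is given. Cenpf, a large kinetochore protein, was above background on both WT arrays, on 1 of 2 TIAR KO and on 0 of 2 TIA1 KO arrays. Ttk, the checkpoint kinase Mps1, failed on 1 TIA1 KO array.

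Replicate arrays were close for most members. The median SD between the arrays of a group was 0.147 in WT, 0.0982 in the TIA1 KO and 0.195 in the TIAR KO line (n = 2 each). The widest spread was that of Ccna2 (cyclin A2) in WT, with an SD of 0.620, that of Ttk in TIA1 KO, with 0.948, and that of Bub1b in TIAR KO MEF, with 1.16. The median standard error of a member's difference was 0.183 for TIA1 KO and 0.215 for TIAR KO against WT MEF.

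Cdk1 and its partners come first in the order of events. The Cdk1 probe (mm9 chr10:68801072-68801131) read 11.66 and 12.46 in WT, 12.05 and 11.98 in TIA1 KO, and 11.31 and 12.11 in TIAR KO MEF. The 2 WT arrays lay far apart and all groups overlapped. The differences from WT were -0.04 ± 0.31 (SE, adjusted p 0.936, limma) in TIA1 KO and -0.35 ± 0.37 (adjusted p 0.704, limma) in TIAR KO MEF. They turned with the WT array left out, from -0.44 without WT replicate 1 to 0.36 without WT replicate 2 in TIA1 KO and from -0.75 to 0.06 in TIAR KO MEF. The second of 3 Cdk1 probes read 8.11 and 8.25 in WT, 6.88 and 7.65 in TIA1 KO, where it was at background on both arrays, and 7.99 and 8.01 in TIAR KO MEF. It was past the threshold in neither comparison (adjusted p 0.158 and 0.596, limma), and the remaining probe was above background on 0 of 6 arrays.

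Ccnb1 is the gene of cyclin B1, and its replicate arrays lay closer together. Its probe (mm9 chr13:101548722-101548781) read 14.99 and 14.99 in WT, 13.98 and 14.10 in TIA1 KO, and 14.25 and 14.46 in TIAR KO MEF. Every knock-out array lay below both WT arrays. The difference was -0.95 ± 0.15 in TIA1 KO (1.94 times lower, adjusted p 0.0604, limma) and -0.64 ± 0.15 in TIAR KO MEF (1.56 times lower, adjusted p 0.0742, limma), past the threshold in neither. The difference stayed negative under all 13 other settings in both comparisons, from -2.56 to -0.89 in TIA1 KO and from -1.09 to -0.54 in TIAR KO MEF.

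Ccnb1 had 3 probes, and all 3 means were lower in both knock-outs. The second read 12.69 and 12.84 in WT, 11.90 and 11.53 in TIA1 KO, and 11.71 and 11.97 in TIAR KO MEF. Its difference was -1.05 ± 0.20 (adjusted p 0.0802, limma) in TIA1 KO, and -0.92 ± 0.16 (adjusted p 0.0335, limma) in TIAR KO MEF, where the fold stayed under 2. On the third probe the groups of TIAR KO and WT MEF overlapped.

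The other cyclins and the activating phosphatases lay in the same direction with all arrays kept. Cdc25b, which starts the activation of Cdk1, read 13.62 and 13.64 in WT, 12.79 and 12.73 in TIA1 KO, and 12.93 and 12.91 in TIAR KO MEF. Its difference was -0.87 ± 0.15 (adjusted p 0.0683, limma) in TIA1 KO and -0.71 ± 0.14 (adjusted p 0.0421, limma) in TIAR KO MEF. Cdc25c, which acts with Cdk1 in a loop, was lower in TIAR KO MEF by -0.94 ± 0.15 (adjusted p 0.0224, limma), while its TIA1 KO and WT arrays overlapped. Ccna2 differed by -0.65 and -0.40 and Ccnb2 (cyclin B2) by -0.33 and -0.80 in TIA1 KO and TIAR KO MEF, with adjusted p between 0.28 and 0.565 (limma). With 1 array left out, Ccna2 ran from -1.09 to -0.21 in TIA1 KO and from -0.84 to 0.03 in TIAR KO MEF. Ccnb2 then ran from -0.51 to -0.15 and from -1.30 to -0.30. Cdc25c in TIA1 KO MEF ran from -0.49 to 0.04. With all arrays kept, the 6 genes of this role all had a negative difference in both comparisons, with medians of -0.49 and -0.67. The sign turned with 1 array left out for Cdk1 in both comparisons, for Cdc25c in TIA1 KO and for Ccna2 in TIAR KO MEF.

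Among the mitotic kinases, Plk1, which acts from entry to cytokinesis, differed by -0.63 ± 0.24 in the TIA1 KO and -0.60 ± 0.23 in the TIAR KO line. Aurka, the kinase of the spindle poles, differed by -0.45 ± 0.16 and -0.23 ± 0.15. In both genes all knock-out arrays read below the WT arrays, and the adjusted p lay between 0.178 and 0.492 (limma).

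Of the 2 genes grouped as chromosomal passengers (Aurkb, at background, was grouped with the kinases), Birc5 passed the threshold in TIAR KO MEF. Birc5 (mm9 chr11:117716978-117717037), whose protein guides Aurora B to the centromere, read 16.61 and 16.81 in WT, 16.74 and 16.76 in TIA1 KO, and 15.85 and 15.28 in TIAR KO MEF. The TIA1 KO arrays fell within the WT range and both TIAR KO arrays lay below it. Birc5 fell by 1.14 ± 0.23 on the log2 scale in TIAR KO MEF (2.21 times lower, adjusted p 0.0492, limma). It differed by 0.04 ± 0.16 in TIA1 KO MEF, and directly between the knock-outs by -1.19 ± 0.25 (TIAR KO minus TIA1 KO, adjusted p 0.101, limma). With arrays scaled to a common median, Birc5 was called lower in TIA1 KO MEF too (-1.49, adjusted p 0.0107, limma). That scaling moved the median of all genes above background to -1.54 in this comparison. The Birc5 difference between the knock-outs was then -0.11 (adjusted p 0.883, limma).

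The Birc5 call sat at the edge of the threshold. It held under 4 of 13 other settings, with adjusted p from 0.0262 to 0.152 (limma). It was lost with the authors' table (adjusted p 0.0508), with outlier spots kept (0.0519) and with 3 groups fitted together (0.0537, all limma). An offset of 16 (adjusted p 0.0641), the replicate block (0.0665) and processed intensities (0.133, all limma) lost it too. It was also lost without TIAR KO replicate 2 (-0.86), without WT replicate 1 (-1.25) and without WT replicate 2 (-1.04). The other 2 Birc5 probes differed by -0.52 and -0.28 in TIAR KO MEF, neither past the threshold. Cdca8, the gene of borealin in the same complex, read 15.15 and 15.09 in WT, 14.90 and 14.81 in TIA1 KO, and 14.39 and 14.43 in TIAR KO MEF. It was lower by -0.71 ± 0.14 in TIAR KO MEF (adjusted p 0.0435, limma) at a fold of 1.64, and differed by -0.27 ± 0.15 in TIA1 KO MEF (adjusted p 0.308, limma).

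The spindle checkpoint genes had medians of -0.33 in the TIA1 KO and -0.09 in the TIAR KO line over 4 genes. Mad2l1, which inhibits Cdc20, read 14.09 and 14.24 in WT and 14.07 and 14.24 in TIAR KO MEF, a difference of -0.01 ± 0.15. Bub1, the kinase that loads the checkpoint onto kinetochores, differed by 0.08 and -0.17. Bub1b, the gene of BubR1, read 12.66 and 13.38 in WT and 12.73 and 11.10 in TIAR KO MEF, so that its difference of -1.10 ± 0.57 rests on 1 array and was not past the threshold (adjusted p 0.375, limma). Ttk read 9.00 and 8.98 in WT, 7.74 and 9.08 in TIA1 KO, and 9.45 and 9.35 in TIAR KO MEF, where it was 0.40 ± 0.14 higher (adjusted p 0.191, limma).

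At the kinetochore, the 4 members gave no call on their brightest probes. Nuf2, a subunit of the complex that grips the microtubule, read 12.74 and 12.90 in WT, 12.15 and 12.04 in TIA1 KO, and 11.91 and 12.17 in TIAR KO MEF. Its difference was -0.73 ± 0.16 (adjusted p 0.0968, limma) and -0.78 ± 0.17 (adjusted p 0.0542, limma). Ndc80, its partner in that complex, differed by -0.23 in the TIA1 KO and 0.28 in the TIAR KO line. Cenpe, the kinesin of chromosome alignment, differed by -0.05 and -0.13.

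Cenpf read 8.70 and 8.48 in WT, 6.90 and 7.40 in TIA1 KO, and 7.53 and 8.36 in TIAR KO MEF. Its TIA1 KO values are background readings. Set against the lowest signal rated well above background on each dim array (or its own value, if higher), Cenpf in TIA1 KO MEF was at least 1.83-fold lower than in WT (measured difference -1.44, adjusted p 0.0638, limma).

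A second Nuf2 probe gave a far larger difference than the first. It read 11.54 and 12.13 in WT, 7.02 and 7.95 in TIA1 KO, and 6.39 and 6.95 in TIAR KO MEF, where it was not well above background on any of the 4 knock-out arrays. By the same bound its level in TIA1 KO MEF was at least 14.4-fold lower (adjusted p 0.0223, limma), and that in TIAR KO MEF at least 29.9-fold lower (adjusted p 0.000785, limma). The 2 probes target different stretches of the gene on mm9, chr1:171428989-171429048 for the brightest and chr1:171440451-171440510 for the second. Their first 30 of 60 bases, as the array files give them, are shown because these probes of 1 gene disagreed.
Nuf2 brightest probe: atctttgtaaacttgaaaagtgctctggag
Nuf2 second probe: gcactctctgaactacttagtgtctgtgca

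No transcript model of that build was used, so the exon or UTR of each probe is not given. The remaining Nuf2 probe was near background, with 7.57 and 7.57 in WT and values from 6.47 to 6.90 in the knock-outs.

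**Figure D2:**
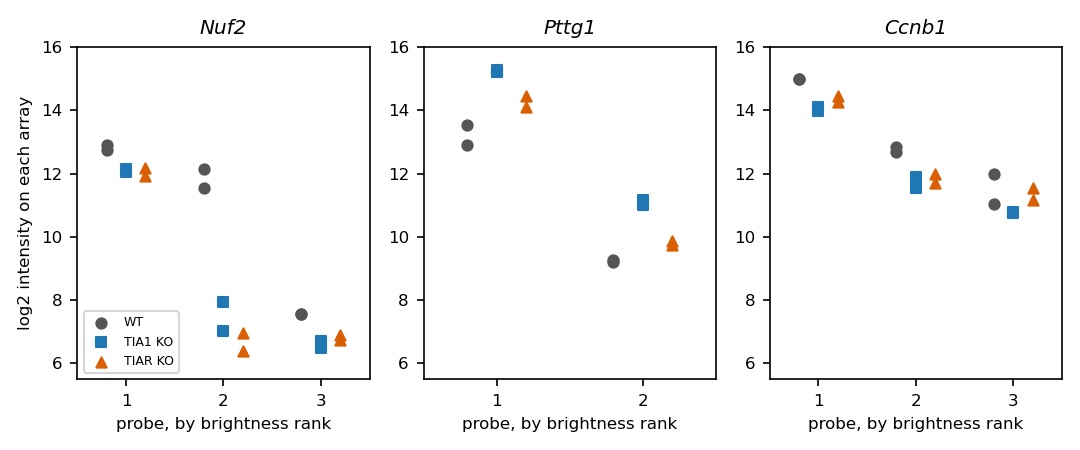
Log2 intensity of each probe of Nuf2, Pttg1 and Ccnb1 on the 6 arrays, with probes ordered by brightness and levels comparable within a probe only. The second Nuf2 probe drops from 11.54 and 12.13 in WT to below 8 in both knock-outs, while both Pttg1 probes are higher in the knock-outs and all 3 Ccnb1 means are lower.

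Over the 12 genes with more than 1 probe, the 17 other probes had the sign of the brightest probe in 15 cases for TIA1 KO and in 16 for TIAR KO against WT MEF. They lay within 0.5 of it in 12 and 10 cases. The exceptions in sign were the second probe of Kif23 in both comparisons (above background on 1 of 6 arrays) and the second probe of Ect2 in TIA1 KO MEF. The tally includes probes at background, such as the third Cdk1 probe, whose signs cannot show agreement. The brightest Ect2 probe read below WT on all 4 knock-out arrays, whereas its second probe read 7.21 and 7.22 in WT and 8.45 and 8.58 in TIA1 KO MEF. This probe was above background on 1 of 6 arrays, a TIA1 KO array. It was called higher in TIA1 KO than in WT MEF (adjusted p 0.0358, limma), and no fold is given.

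The spindle genes had medians of -0.46 in the TIA1 KO and -0.38 in the TIAR KO line. Prc1, which bundles microtubules of the central spindle, read 14.98 and 14.95 in WT, 14.46 and 14.56 in TIA1 KO, and 14.25 and 14.09 in TIAR KO MEF. It was lower by -0.80 ± 0.15 in TIAR KO MEF (adjusted p 0.0361, limma) and differed by -0.46 ± 0.15 in TIA1 KO MEF (adjusted p 0.157, limma). Tpx2, the activator of Aurora A on the spindle, differed by -0.72 and -0.48 and Nusap1, a microtubule binder, by -0.63 and -0.38. Kif11, the motor that pushes the poles apart, differed by -0.26 and 0.03, and Hmmr, a spindle assembly factor, by 0.07 and -0.07.

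The cytokinesis genes had the lowest median of any role with 3 or more genes, -0.75 in the TIA1 KO and -0.83 in the TIAR KO line. Ect2, which activates RhoA to build the contractile ring, read 14.61 and 14.61 in WT, 13.66 and 13.56 in TIA1 KO, and 13.73 and 13.57 in TIAR KO MEF. Every knock-out array lay below WT, with differences of -1.0 ± 0.15 (adjusted p 0.0541, limma) in TIA1 KO and -0.96 ± 0.15 (adjusted p 0.0206, limma) in TIAR KO MEF. The latter passed the p threshold at a fold of 1.94.

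Kif20a (mm9 chr18:34792251-34792310), the kinesin that carries the passenger complex to the midzone, read 14.12 and 14.35 in WT, 13.20 and 13.30 in TIA1 KO, and 12.77 and 13.33 in TIAR KO MEF. All 4 knock-out arrays lay below WT. Kif20a fell by 1.18 ± 0.23 on the log2 scale in TIAR KO MEF (2.27 times lower, adjusted p 0.0433, limma) and differed by -0.98 ± 0.17 in TIA1 KO MEF (adjusted p 0.0697, limma). The call held under 8 of 13 other settings. It was lost with processed intensities (adjusted p 0.0612) and with an offset of 16 (adjusted p 0.0564, both limma). It was also lost without TIAR KO replicate 1 (-0.90), without WT replicate 1 (-1.30) and without WT replicate 2 (-1.07).

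Kif23, the kinesin of the centralspindlin complex, read 12.52 and 12.55 in WT, 12.15 and 11.90 in TIA1 KO, and 11.89 and 11.76 in TIAR KO MEF. It was lower by -0.71 ± 0.14 in TIAR KO MEF (adjusted p 0.0479, limma) and differed by -0.51 ± 0.17 in TIA1 KO MEF (adjusted p 0.155, limma). Anln, the gene of anillin, a scaffold of the contractile ring, differed by -0.01 and -0.42, with adjusted p of 0.986 and 0.341 (limma).

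**Figure D3:**
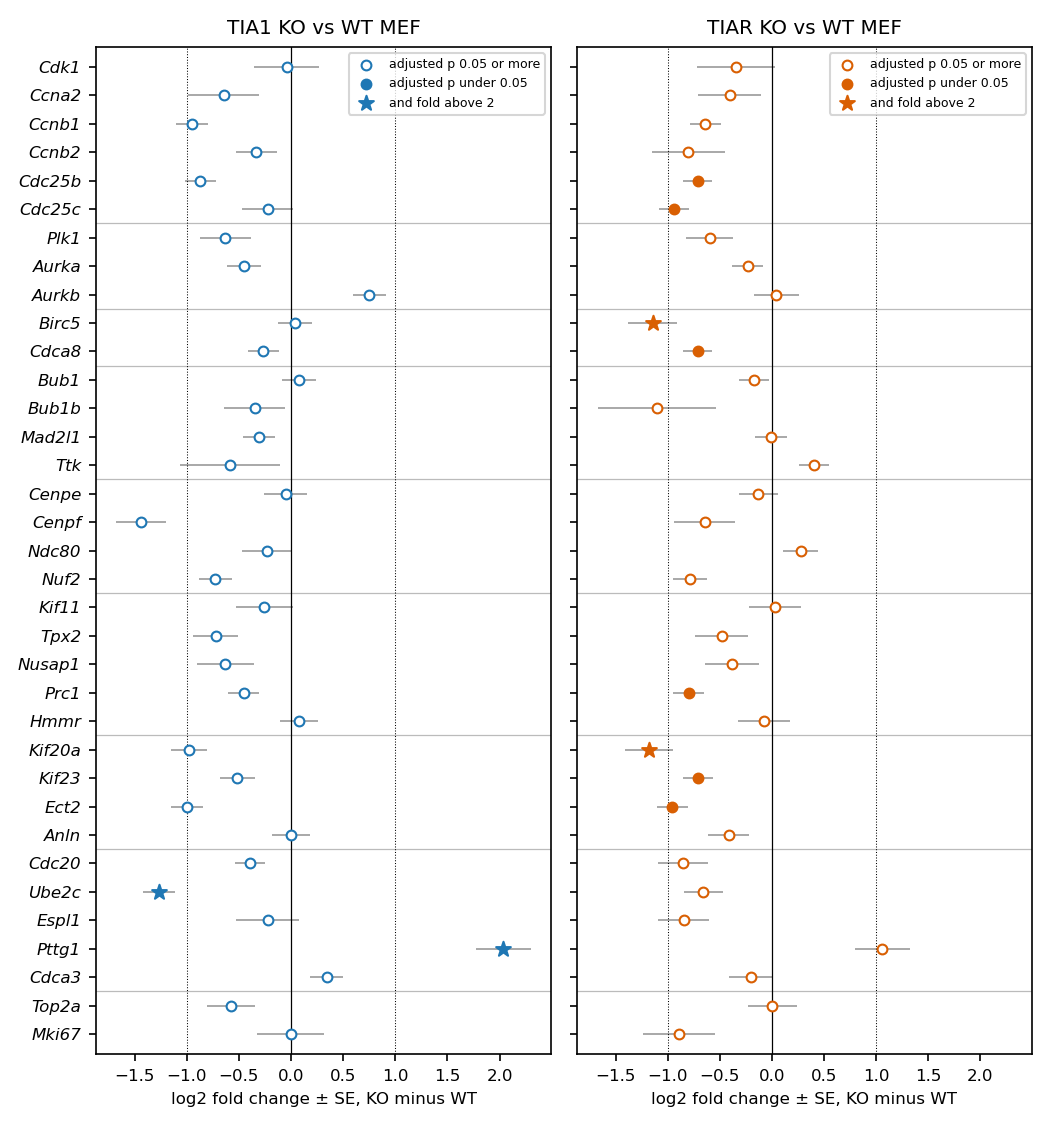
Log2 difference of each mitosis gene from WT MEF with its standard error, by role, in TIA1 KO (left) and TIAR KO MEF (right), with 2 arrays a group. Filled points have a limma adjusted p under 0.05, stars also a fold above 2, and dotted lines mark a fold of 2. The stars are Ube2c and Pttg1 on the left and Birc5 and Kif20a on the right.

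The 2 members called in TIA1 KO MEF, 1 higher and 1 lower, both belong to the genes of anaphase and protein destruction. Pttg1 (mm9 chr11:43233801-43233860) encodes securin, which binds and restrains separase until the APC/C destroys it. It read 12.89 and 13.52 in WT, 15.20 and 15.28 in TIA1 KO, and 14.44 and 14.09 in TIAR KO MEF. The groups did not overlap, with WT lowest, TIAR KO between and TIA1 KO highest.

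Pttg1 rose by 2.03 ± 0.26 in TIA1 KO MEF (4.10 times higher, adjusted p 0.0415, limma). In TIAR KO MEF it was 1.06 ± 0.26 higher (2.09 times), which missed the p threshold (adjusted p 0.0807, limma). There it ran from 0.75 without WT replicate 1 to 1.38 without WT replicate 2. Its second probe read 9.21 and 9.26 in WT, 11.001 and 11.17 in TIA1 KO, and 9.75 and 9.85 in TIAR KO MEF, and was called higher in TIA1 KO MEF (1.85 ± 0.16, adjusted p 0.0187, limma). The direction was the same under all 13 other settings, from 0.45 to 2.35 in TIA1 KO and from 0.60 to 1.38 in TIAR KO MEF. The TIA1 KO call of the brightest probe held under 6 of the 13. It was lost with a common median (0.45, adjusted p 0.453) and with the authors' table (adjusted p 0.0621, both limma). Quantiles without loess (adjusted p 0.0562), processed intensities (adjusted p 0.075) and the replicate block (adjusted p 0.0679, all limma) lost it too. It was also lost without WT replicate 1 (1.72) and without WT replicate 2 (2.35).

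Ube2c (mm9 chr2:164597496-164597555) read 15.86 and 16.03 in WT, 14.67 and 14.68 in TIA1 KO, and 15.48 and 15.09 in TIAR KO MEF. Again no groups overlapped, here with WT highest and TIA1 KO lowest. Ube2c fell by 1.27 ± 0.16 on the log2 scale in TIA1 KO MEF (2.41 times lower, adjusted p 0.0386, limma) and differed by -0.66 ± 0.19 in TIAR KO MEF (adjusted p 0.123, limma). The second Ube2c probe differed by -0.66 and -0.20, past the threshold in neither. The call of the brightest probe held under 7 of 13 other settings. It was lost with the authors' table (adjusted p 0.0533) and with an offset of 16 (adjusted p 0.0576, both limma). Processed intensities (adjusted p 0.075) and the replicate block (adjusted p 0.0943, both limma) lost it too. It was also lost without WT replicate 1 (-1.35) and without WT replicate 2 (-1.18).

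Cdc20, the activator that the checkpoint restrains, read 16.07 and 16.08 in WT, 15.65 and 15.70 in TIA1 KO, and 15.54 and 14.90 in TIAR KO MEF. Its differences were -0.39 ± 0.15 (adjusted p 0.183, limma) and -0.86 ± 0.24 (adjusted p 0.114, limma). Espl1, the gene of separase that securin holds in check, differed by -0.22 in TIA1 KO, where its arrays overlapped with WT, and by -0.85 ± 0.24 in TIAR KO MEF (adjusted p 0.123, limma). Cdca3, which serves in the destruction of the Cdk1 inhibitor Wee1, read 13.11 and 13.06 in WT, 13.51 and 13.35 in TIA1 KO, and 12.63 and 13.15 in TIAR KO MEF, past the threshold in neither.

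**Figure D4:**
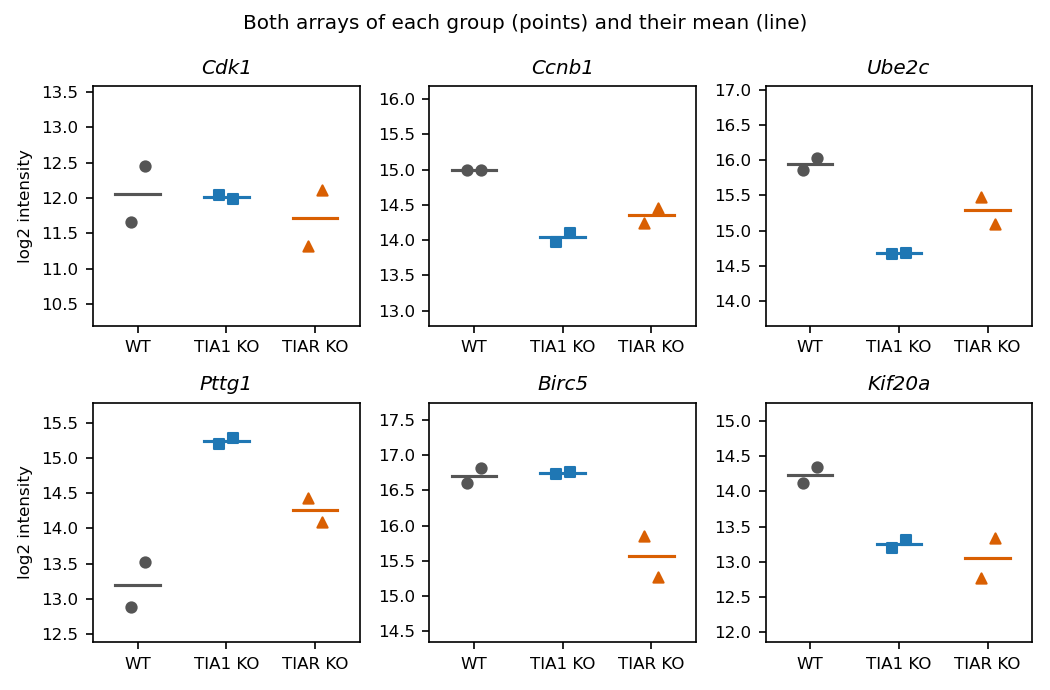
Log2 intensity of Cdk1, Ccnb1 and the 4 called mitosis genes on both arrays of each group (points) with the group mean (line), each panel spanning the same log2 range. Cdk1 groups overlap, Ccnb1, Ube2c and Kif20a are highest in WT, Birc5 is lower in TIAR KO than in both other groups, and Pttg1 is lowest in WT.

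The chromosome proteins gave no call. Top2a, which untangles sister chromatids, differed by -0.58 ± 0.23 in TIA1 KO (adjusted p 0.199, limma) and 0.00 ± 0.24 in TIAR KO MEF. Mki67, the gene of the proliferation antigen Ki-67 that coats mitotic chromosomes, read 15.47 and 14.67 in WT, 15.18 and 14.95 in TIA1 KO, and 14.50 and 13.85 in TIAR KO MEF. It differed by -0.01 ± 0.32 in TIA1 KO and by -0.89 ± 0.35 in TIAR KO MEF (adjusted p 0.236, limma). With 1 array left out, it ran from -0.40 to 0.39 in TIA1 KO and from -1.29 to -0.50 in TIAR KO MEF. The second Mki67 probe differed by -0.14 and -0.35, with overlapping groups in both comparisons.

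The 2 knock-out lines were then compared with each other. Read from the brightest probes, 0 of 35 genes were called by limma, beside 3.35% of all probes, and 8 had an unadjusted p under 0.05, beside 22.6% of all probes. Both TIAR KO arrays read below both TIA1 KO arrays for 13 genes (37.1%, beside 25% of all probes) and above them for 12 (34.3%, beside 34.9%). The median of -0.15 (TIAR KO minus TIA1 KO) turned to 0.03 without TIAR KO replicate 1, and to 0.95 when arrays were scaled to a common median, a scaling that moved the median of all genes above background to 1.10, and members lay 0.15 below that median. The second Pttg1 probe was called lower in TIAR KO than in TIA1 KO MEF (-1.29, adjusted p 0.0405, limma). This call was lost with a common median (-0.32, adjusted p 0.624, limma) and under the replicate block, where 0 probes were called. At a similar difference it was also lost with processed intensities (-1.28, adjusted p 0.0701) and with an offset of 16 (-1.33, adjusted p 0.0577, both limma). The brightest Pttg1 probe was not called (-0.97) and turned to 0.15 with a common median. The second Ect2 probe was at background on both TIAR KO arrays and was above it on 1 of 2 TIA1 KO arrays. A difference past the threshold in 1 line and not in the other, as for Ube2c or Kif20a, is thus not shown to differ between the lines.

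The size of the group's shift depended on how arrays were scaled, and less so its distance from the genes well above background. With a common array median the mitosis genes had a median of -1.90 in the TIA1 KO and -0.91 in the TIAR KO line, and all genes above background had medians of -1.54 and -0.43. Against that reference, the members lay 0.31 lower in TIA1 KO MEF as reported and from 0.27 to 0.37 lower under the other settings applied to the brightest probes. In TIAR KO MEF they lay 0.57 lower, and from 0.47 to 0.62 lower under the same settings. The distance from all probes was less stable in TIA1 KO MEF. There the medians of all probes and of the members were -0.09 and -0.35 as reported. They were -0.67 and -1.90 with a common median and 1.98 and -0.58 with processed intensities. In TIAR KO MEF these pairs were -0.02 and -0.60, -0.02 and -0.91, and -0.04 and -0.65. When all 52 probes of the members were counted in place of the brightest, the median was -0.34 in the TIA1 KO and -0.39 in the TIAR KO line, which is 0.30 and 0.37 below the median of all genes above background. The median intensity of the TIA1 KO arrays, 458 and 218 units, was higher than on the other 4 arrays (119 to 152 units), as was that of their negative controls (196 and 119 units against 88.6 to 112 units), and their part in these differences was not tested.

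**Figure D5:**
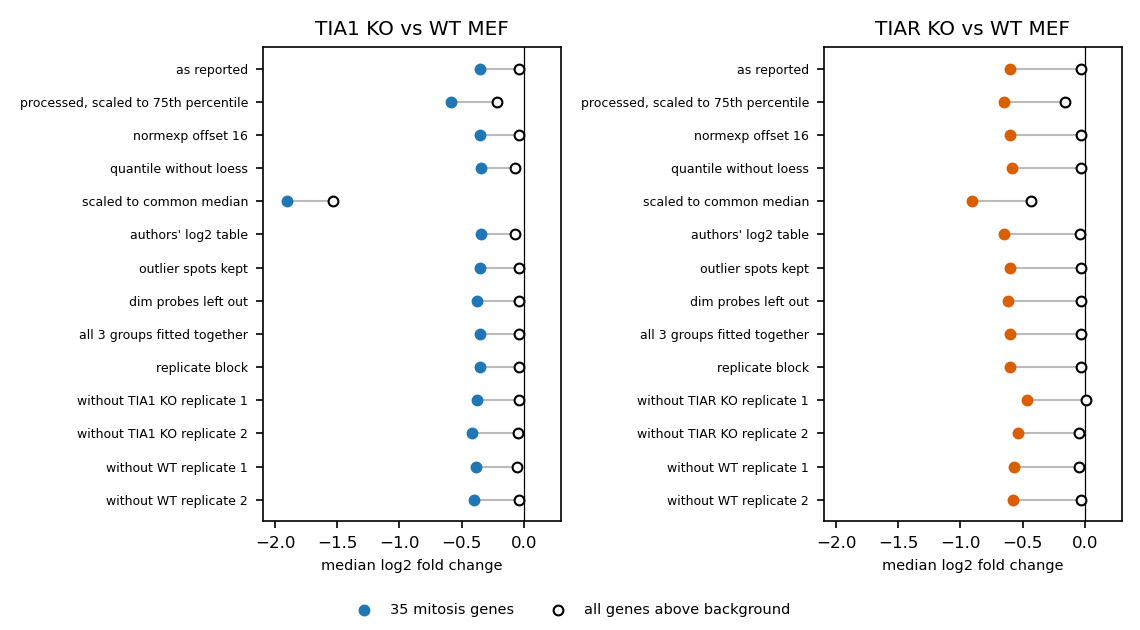
Median log2 difference from WT MEF of the 35 mitosis genes (filled) and of all genes well above background on every array (open) as reported and under each other setting applied to the brightest probes. Scaling to a common array median moves both medians to the left, and the filled point stays left of the open one in every row.

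The start regions of these genes were searched for the letters of 2 elements known from cell cycle promoters, because most members lay on the same side of 0. CCAAT is the box bound by NF-Y, and the cell cycle homology region (CHR) was searched as TTTGAA or TTCGAA, both on either strand, from 250 bases before to 50 after each RefSeq start on GRCm38.p6. Of 30 members with an entry, 23 held CCAAT (76.7%, beside 41.1% of 27025 genes), 23 held the CHR letters (76.7%, beside 21.7%) and 21 held both in 1 window (70.0%, beside 8.61%). Ccna2, Cdc25c, Aurkb, Tpx2 and Kif20a had no entry. The windows of Birc5, Mad2l1, Nuf2, Nusap1 and Pttg1 held neither.

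The 150 bases before the start are shown for Cdk1, Ccnb1 and the called members with an entry, with the matches in capitals. The regions are chr10:69352913-69353062 (minus strand) for Cdk1, chr13:100786487-100786636 (minus) for Ccnb1, chr2:164769779-164769928 (plus) for Ube2c, chr11:117849087-117849236 (plus) for Birc5 and chr11:43425982-43426131 (minus) for Pttg1. ATTGG and TTCAAA are the same letters read from the other strand.
Cdk1: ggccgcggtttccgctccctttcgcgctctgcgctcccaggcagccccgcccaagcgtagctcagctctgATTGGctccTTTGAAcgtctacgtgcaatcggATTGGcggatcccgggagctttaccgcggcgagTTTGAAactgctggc
Ccnb1: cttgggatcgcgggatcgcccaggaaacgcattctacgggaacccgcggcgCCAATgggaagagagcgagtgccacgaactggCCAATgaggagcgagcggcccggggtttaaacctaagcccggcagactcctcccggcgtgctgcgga
Ube2c: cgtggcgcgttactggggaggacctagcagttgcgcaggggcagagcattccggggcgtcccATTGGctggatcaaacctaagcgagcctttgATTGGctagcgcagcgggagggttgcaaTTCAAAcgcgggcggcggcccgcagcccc
Birc5: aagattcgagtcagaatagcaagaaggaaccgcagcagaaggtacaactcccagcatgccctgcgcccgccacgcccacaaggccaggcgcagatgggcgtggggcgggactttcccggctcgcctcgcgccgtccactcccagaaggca
Pttg1: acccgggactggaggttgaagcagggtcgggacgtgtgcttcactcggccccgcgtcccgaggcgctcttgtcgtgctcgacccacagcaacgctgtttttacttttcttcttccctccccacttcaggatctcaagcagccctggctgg

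Ccnb1, past the threshold in neither line on its brightest probe, holds CCAAT at positions -99 and -67 from the start. Its window holds neither TTTGAA nor TTCGAA on either strand, and other letters for the CHR were not searched. Cdk1 and Ube2c hold both elements. Pttg1, which rose in TIA1 KO MEF, and Birc5, which fell in TIAR KO MEF, hold neither. No test related the letters to the differences, and a match gives letters only and does not show that a factor binds.

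A wider list of 98 mitosis genes outside the 35 lay in the same direction, with medians of -0.30 in the TIA1 KO and -0.26 in the TIAR KO line and with 76 and 68 genes below 0. In TIA1 KO MEF limma called 0 of them, and 26, all lower, had an unadjusted p under 0.05, beside 17.3% of all probes lower at that p. In TIAR KO MEF 5 were called (5.10%, beside 5.76% of all probes), all lower (beside 2.37%). They were Mybl2, a transcription factor of late cell cycle genes (-1.29 ± 0.18), Plk4, the kinase of centriole duplication (-1.05 ± 0.17), Ckap2 (-1.57 ± 0.31) and Troap (-1.63 ± 0.28), which bind microtubules of the spindle, and the mitotic kinase Pbk (-1.07 ± 0.16). Foxm1, the factor that switches on many G2 and M genes, read 13.93 and 13.94 in WT, 13.14 and 13.01 in TIA1 KO, and 13.32 and 13.44 in TIAR KO MEF, past the threshold in neither. Between the knock-outs Sgol1, which protects centromeric cohesin, was called 1.14 ± 0.16 higher in TIAR KO MEF.

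Genes of the phases before mitosis were set beside them. The 38 DNA replication genes had medians of -0.35 in the TIA1 KO and -0.45 in the TIAR KO line, close to those of the mitosis genes. Prim2, a subunit of primase, read 13.03 and 13.13 in WT, 7.998 and 8.45 in TIA1 KO, where it was above background on 1 of 2 arrays, and 11.995 and 11.69 in TIAR KO MEF. It was called lower in TIA1 KO MEF (adjusted p 0.00547, limma) with no exact fold, since 1 array gave a background reading. No other replication gene was called there (1 of 38, 2.63%, beside 3.54% of all probes). Prim2 fell by 1.24 ± 0.17 on the log2 scale in TIAR KO MEF, where Prim1 (-1.67 ± 0.26), Rfc5 (-1.60 ± 0.28) and Orc1 (-1.17 ± 0.21) also fell. These were the 4 of 38 genes called there (10.5%), beside 5.76% of all probes called and 2.37% called lower. Prim2 was the 1 replication gene called between the knock-outs (2.63%, beside 3.35% of all probes), higher in TIAR KO MEF (adjusted p 0.0116, limma). The 19 G1 and Rb-E2F genes had medians of -0.31 in the TIA1 KO and -0.09 in the TIAR KO line. Of these, 1 was called in TIA1 KO (5.26%, beside 3.54% of all probes) and 4 in TIAR KO MEF (21.1%, beside 5.76%). E2f2, an activating E2F, fell in both lines, with differences of -1.60 ± 0.18 in the TIA1 KO and -2.57 ± 0.18 in the TIAR KO line. In TIAR KO MEF, Rb1 (-1.60 ± 0.16) and E2f8 (-1.22 ± 0.14) fell and E2f6 rose (1.35 ± 0.25).

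Of 9 genes of the Cdk inhibitors and the p53 axis, brakes of the cell cycle, 4 were called between the knock-outs (beside 3.35% of all probes), where the median of the 9 was 0.07. Cdkn2a, which encodes the p16 and p19 inhibitors, read 15.64 and 15.62 in WT, 12.42 and 12.49 in TIA1 KO, and 16.01 and 16.22 in TIAR KO MEF. Cdkn1a, the p21 gene, read 12.37 and 12.42 in WT, 13.24 and 13.17 in TIA1 KO, and 10.14 and 10.38 in TIAR KO MEF. Cdkn2a fell in TIA1 KO (-3.18 ± 0.15, adjusted p 0.00582, limma) with Cdkn2b (-1.84 ± 0.23), and Cdkn1a fell in TIAR KO MEF (-2.13 ± 0.16, adjusted p 0.00189, limma). Between the knock-outs (TIAR KO minus TIA1 KO) Cdkn2a was called at 3.66 ± 0.17, Cdkn2b at 2.22 ± 0.17, Cdkn1b (the p27 gene) at 1.66 ± 0.17 and Cdkn1a at -2.94 ± 0.17. Cdkn2d, which encodes p19Ink4d, lay below WT on all 4 knock-out arrays and its knock-out groups overlapped.

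The knocked-out genes and the cell type were checked as far as the probes allow. Tia1 read 10.72 and 8.54 in WT, 7.87 and 8.44 in TIA1 KO, and 9.56 and 9.58 in TIAR KO MEF. Tial1 read 13.22 on the 1 WT array left after an outlier spot was dropped, 14.07 and 13.69 in TIA1 KO, and 9.57 and 11.60 in TIAR KO MEF. Each gene was lowest in the line labelled for its loss, but neither was called against WT MEF, and whether the probes lie in the deleted part is not known.

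Of 10 fibroblast markers, limma called 7 higher in TIA1 KO and 8 higher in TIAR KO than in WT MEF. Among all 55681 probes, 1213 and 1885 were called higher. Vim read 17.24 or above on all 6 arrays and Col1a1 15.09 or above, whereas Pdgfra (6.37 and 6.40) was at background on both WT arrays and Thy1 (6.63 and 6.98) and Dcn (6.57 and 6.62) were above it on 1 of 2. Col3a1 read 9.52 and 9.08 in WT and 15.16 or above in both knock-outs. Thy1 was also at background in TIA1 KO MEF, and Lum on all 6 arrays. Of 5 epithelial markers, 1 was called higher for the TIA1 KO line (Krt8) and 3 for the TIAR KO line (Krt8, Krt18 and Cdh1). Of 5 macrophage and blood markers 0 and 1 were called (Aif1, lower), and of 3 muscle markers 0 and 1 (Des, higher). Of 4 endothelial markers none was called in either comparison. Calls in either direction made up 3.54% of all probes for the TIA1 KO line against WT and 5.76% for the TIAR KO line. Pdgfra was thus at background on both arrays of the WT line and at 11.51 or above in TIAR KO MEF, while Vim, Col1a1, Col1a2, Fn1 and Pdgfrb were above background on all 6 arrays. The part of these marker differences in those of the mitosis genes was not tested.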

How the data were processed

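The scanner's intensity and local background of every spot were deposited by the authors, with a table of normalized log2 values made, per the labels, with limma. Probe positions are those of the files (mm9). Spot intensities were corrected by normexp (offset 50), taken to log2, adjusted by 1 loess pass and quantile normalized. Control and outlier spots were dropped and spots of a probe averaged. Each comparison was fitted across all 55681 probes with limma 3.58.1 (lmFit, eBayes; R 4.3.3) on its own 4 arrays, without covariates, with Benjamini-Hochberg adjustment. The fit was also tested on simulated data. A gene was read from its brightest probe over the 6 arrays. Named were all 35 members, with every array's value for Cdk1, Ccnb1 and called members, Tia1 and Tial1, and up to 3 called genes with the largest change of each other list (Foxm1, Plk4, Orc1, E2f8, Cdkn1b, Cdkn2d, Vim, Col1a1, Col1a2, Fn1, Pdgfrb and Lum, and array values of other members, were added after they were seen). Members and lists were chosen with earlier results of these data known. A probe was taken as well above background where the scanner software rated 50% or more of its spots on that array so. The number of arrays limits precision.

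Other settings were processed intensities scaled to the 75th percentile, an offset of 16, no loess, a common median, the authors' table, outlier spots kept, dim probes left out, all 3 groups fitted together, a replicate block, every probe counted, and each array left out. Replicate numbers did not pair the arrays, with correlations of same-numbered deviations of 0.030, 0.078 and -0.073.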

Additional observations from a re-analysis of the deposited data

Results flagged for a closer look

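The second Pttg1 probe was 1.29 lower on the log2 scale in TIAR KO than in TIA1 KO MEF (-1.29, adjusted p 0.0405, limma), which is a direct test of the knock-outs against each other. It was no longer called with a common array median (-0.32, adjusted p 0.624, limma), with processed intensities (-1.28, adjusted p 0.0701, limma) or with an offset of 16 (-1.33, adjusted p 0.0577, limma). The brightest Pttg1 probe differed by -0.97 ± 0.19 in the same direction and was not called (adjusted p 0.092, limma), and turned to 0.15 with a common median (adjusted p 0.832, limma). The second Ect2 probe was above background on 0 of 2 TIAR KO and 1 of 2 TIA1 KO arrays. Its measured difference of -1.39 (TIAR KO minus TIA1 KO, adjusted p 0.0365, limma) is thus mostly one of background readings, and the call was lost with processed intensities (-5.16, adjusted p 0.0619, limma) and with the authors' table (-1.84, adjusted p 0.0625, limma), at larger differences. The brightest Ect2 probe differed by 0.04 ± 0.16. Under the replicate block 0 probes were called between the knock-outs, so that the calls of both second probes were lost there too.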

How the results depend on the processing

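The group's median stayed negative against WT under every setting run, but no call of a single mitosis gene held under all of them. With 2 arrays a group, adjusted p of the called genes lay close to the threshold. Probes called between TIA1 KO and WT (1969 as reported) numbered 0 with processed intensities scaled to the 75th percentile, 15801 with a common array median, 1309 with the authors' table, 3986 with all 3 groups fitted together, 671 with the replicate block, and 0 to 10735 with 1 array left out. Mitosis genes called there (2) numbered 0 with processed intensities, the authors' table or the block, 1 with an offset of 16 or without loess, 4 without dim probes, 32 with a common median, 5 of 52 when every probe was counted, and 0 to 6 with 1 array left out. In TIAR KO against WT, probes called (3206) numbered from 2307, without TIAR KO replicate 2, to 4139, with a common median, with 2526 for processed intensities and 3494 for an offset of 16. Mitosis genes called there (2) numbered 0 with processed intensities or an offset of 16, 1 with the authors' table, with outlier spots kept, with 3 groups fitted together or with the block, 13 with a common median, and 0 to 1 with 1 array left out. Between the knock-outs, probes called (1866) numbered 8307 with a common median, 2910 without dim probes, 3183 with 3 groups, 0 with the block, and 0 to 10086 with 1 array left out, and mitosis genes called (0) numbered 11, 0, 1 and 0, with 2 when every probe was counted and 0 to 2 with 1 array left out. With a common median the median of the mitosis genes was -1.90 in the TIA1 KO line and 0.95 between the knock-outs. The common median was applied after the same background correction, without loess or quantile scaling, and the cause of its shift was not tested. With 1 array left out, the lone array was assumed to vary like the other group. Under the block 0 of 2 calls of mitosis genes in TIA1 KO and 1 of 2 in TIAR KO were kept; the arrays share a number only.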
